A study of Mus musculus with 2 samples.

Results

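MicroRNAs are cut from long hairpin transcripts and work inside an Argonaute protein. In the nucleus the Microprocessor, made of the RNase III enzyme Drosha and its RNA-binding partner Dgcr8, cuts the hairpin out of the primary transcript. In the cytoplasm Dicer1, a second RNase III enzyme, trims the hairpin to a duplex, and 1 strand is loaded into an Argonaute (Ago1 to Ago4), of which Ago2 is the one known as a slicer in mammals. The Argonaute then recruits a Tnrc6 scaffold (Tnrc6a to Tnrc6c, also called GW182 proteins), which brings deadenylases to the target messenger RNA.

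These 10 genes were read across 10 annotated cell types of the mouse jejunal crypt, out of 27998 genes in the matrices. The genes were chosen by name for their place in the pathway and not picked for their values, though earlier results of these data were known. Single-cell RNA libraries came from jejunal crypts of 2 male mice, 12 months old, in which miR-375 is deleted in the whole body (375KO). The strain is labelled C57BL6/2J, and the study's methods describe a CRISPR/Cas9 knockout line crossed to B6 albino mice. There was 1 library per mouse (replicate 1 and replicate 2), and both mice form a single group. The wild-type libraries of the study are in another series and were not analysed here, so every comparison below is between cell types or between the 2 knockout mice, and none measures an effect of losing miR-375.

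UMIs (unique molecular identifiers, each 1 captured RNA molecule) were summed per mouse and per type that the authors annotated. A level is given as CPM, the UMIs of a gene relative to all UMIs of that sum, on the usual CPM scale. Replicate 1 held 2082 kept cells with 44017234 UMIs and replicate 2 held 1193 cells with 22163354 UMIs, and no barcode was shared. Sums ranged from 18 cells (IEL, intraepithelial lymphocytes, replicate 2) to 931 cells (enterocytes, replicate 1). Of 41 markers, 32 were highest in their own type in both mice. Transit-amplifying (TA) cells and secretory progenitors had 2 of 4 each. Goblet progenitors had 0 of 4, but their markers (Muc2, Tff3, Mki67 and Top2a) were also listed for goblet or TA cells. A marker highest in those cells could not count for goblet progenitors, so this 0 says little about the annotation. In Paneth cells 10 genes took 82.6% and 81.9% of all UMIs, which lowers the CPM of every other gene there. The IEL sum of replicate 1 also held all 3 myeloid markers, at 1923 CPM summed, against 2 of 3 at 93.2 CPM in replicate 2.

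Dgcr8 carries microRNA hairpins in its own messenger RNA, and its transcript is known as a substrate of the Microprocessor itself. The annotation (GENCODE M21, mm10) places Dgcr8 at chr16:18253948-18289246 on the minus strand. Exon 2 of its 14 exons (transcript Dgcr8-201) holds 2 hairpins on the same strand. One, mir-1306, lies in the coding sequence at chr16:18284239-18284317. The other, mir-3618, lies in the 5′ UTR at chr16:18284550-18284637. They are shown because they tie this member of the machinery to its substrates. The RefSeq hairpin of mir-1306 (GRCm38.p6, 79 bases, with the 5p and 3p arms in capitals) and the mature arms of mir-3618 (seed, bases 2 to 8, in capitals) read as follows.
mir-1306 hairpin: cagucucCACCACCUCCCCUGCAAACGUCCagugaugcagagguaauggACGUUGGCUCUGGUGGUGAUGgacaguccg
mmu-miR-3618-5p: uGUGAUUUccaauaauugaggc
mmu-miR-3618-3p: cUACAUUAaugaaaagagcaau

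Tnrc6b, at chr15:80711313-80941085 on the plus strand, holds a further annotated microRNA in the 3′ UTR of exon 25 of 25 (Tnrc6b-201). It is shown because UMIs of these libraries come from the 3′ ends of transcripts, where this sequence lies.
mmu-miR-5113: aCAGAGGAggagagagauccugu
The 4 sequences give 5 mature arms with 5 different seeds. Their own hairpins and arms were not measured, since the libraries read polyadenylated RNA.

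The other members are Drosha at chr15:12824815-12935291 (plus strand), Dicer1 at chr12:104687742-104751952 (minus) and Ago2 at chr15:73095844-73184935 (minus). Ago3, Ago1 and Ago4 lie next to each other on the minus strand of chromosome 4, at chr4:126331704-126429556, chr4:126435012-126468583 and chr4:126489541-126533472. Tnrc6a is at chr7:123123885-123195296 and Tnrc6c at chr11:117654289-117763439, both on the plus strand. Of the annotated genes that overlap a member, only Trmt2a (at Dgcr8) and Chrac1 (at Ago2) are in the matrices, and both are on the opposite strand.

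All 10 genes were detected in both mice. Over the 9 epithelial types of both mice together, Ago2 was read with 3348 UMIs, Tnrc6b with 3256, Tnrc6a with 2578, Dicer1 with 1735, Tnrc6c with 1694, Drosha with 786, Dgcr8 with 690, Ago1 with 566, Ago3 with 458 and Ago4 with 113. Ago4 was too low for the filter on low counts and was not tested. The other 9 were tested with edgeR's quasi-likelihood method, with cell type and mouse as terms and TMM scaling, which sets sums to a common level over most genes. A joint test asked whether a gene differed anywhere among the 9 epithelial types. It called 4 of the 9 tested genes, while 77.3% of all 11013 genes tested were called. These were Ago2 (adjusted p = 1.84e-04), Dgcr8 (0.00132), Tnrc6b (0.0244) and Drosha (0.0401). Dicer1 (adjusted p = 0.839), Ago3 (0.666), Tnrc6a (0.519), Tnrc6c (0.142) and Ago1 (0.121) were not called by edgeR. The types were defined from expression of the same cells, so the share of all genes called describes how far apart the annotated classes stand. Without the mouse as a term, only Ago2 was called in the joint test (1 of 9, adjusted p = 0.0135 in edgeR), against 51.7% of all genes. Ago2 and Dgcr8 also stayed called with Paneth cells left out and under a stricter cell filter, while Drosha (adjusted p = 0.0848 and 0.299, edgeR) and Tnrc6b (0.0680 and 0.246) did not. Tnrc6b was also lost with no filter on low counts (0.0757), with IEL included (0.0508) and in cells thinned to 5000 UMIs (0.194).

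**Figure D1:**
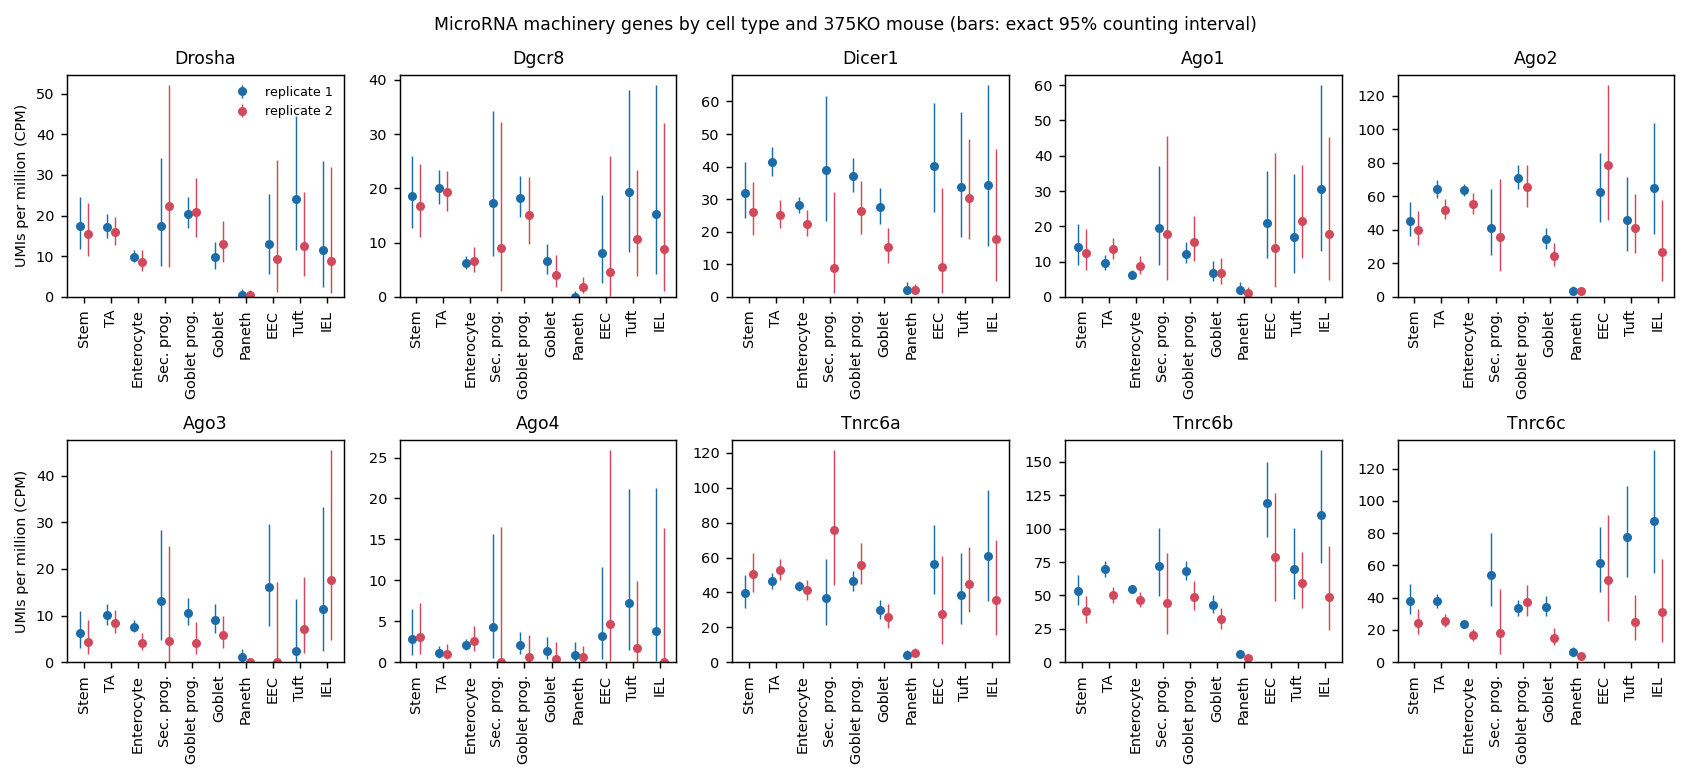
Level of each gene in CPM (vertical axis, linear, from 0, own scale per gene) in the 10 annotated types (horizontal axis), with replicate 1 and replicate 2 as separate points and exact 95% Poisson intervals, which cover counting error only. Dgcr8 is higher in stem, TA and goblet progenitor cells than in enterocytes and goblet cells in both mice. Every gene but Ago4 is low in Paneth cells of both mice on this scale.

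Dgcr8, the RNA-binding partner in the Microprocessor, was higher in TA, stem and goblet progenitor cells than in enterocytes and goblet cells in both mice. Its level was 20.02 CPM in TA cells of replicate 1 and 19.2 CPM in replicate 2. It was 18.5 and 16.8 CPM in stem cells and 18.2 and 14.997 CPM in goblet progenitors. In enterocytes it was 6.25 and 6.54 CPM, and in goblet cells 6.61 and 4.02 CPM. These 5 types do not stand for all dividing or mature cells, and the other types were mixed. Tuft cells had 19.3 and 10.7 CPM, above stem cells in replicate 1. Secretory progenitors had 17.4 and 8.93 CPM and enteroendocrine cells (EEC) 8.06 and 4.64 CPM. Each of these sums held 1 to 8 Dgcr8 UMIs.

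TA cells exceeded enterocytes in Dgcr8 by 1.21 on the log2 scale (SE 0.26, adjusted p = 2.85e-04, edgeR; 1.11 in replicate 1 and 1.19 in replicate 2). Ago2 was the other gene called in this comparison, so 2 of the 9 genes tested were called beside 51.7% of all genes. Goblet progenitors exceeded goblet cells by 1.10 on the log2 scale (SE 0.37, adjusted p = 0.0225, edgeR; 0.87 and 1.36 in the 2 mice), where again Dgcr8 and Ago2 were the 2 genes called, beside 29.1% of all genes. TA cells against the mean of the other 8 epithelial types gave 0.78 (SE 0.22, adjusted p = 0.00714, edgeR; 1.09 and 0.88), the 1 member called beside 32.8% of all genes. Without the mouse as a term the 3 adjusted p values were 0.0579, 0.198 and 0.147 in edgeR, at log2 fold changes of 1.21, 1.12 and 0.79. In cells thinned to 5000 UMIs, Dgcr8 and Ago3 fell under the filter on low counts and could not be tested.

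The share of cells with a Dgcr8 UMI followed the same order. It was 36.9% and 28.2% in TA cells, with median depths of 20811 and 16966 UMIs per cell, and 11.2% and 8.93% in enterocytes, with 16975 and 13405 UMIs. With every cell thinned to 5000 UMIs, which left out 1 enterocyte of replicate 1 and no other of these cells, it was 8.75% and 8.67% in TA cells and 2.04% and 4.19% in enterocytes. No type in these libraries is known to lack the gene, so a background share could not be set.

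Markers of proliferation were also higher in TA cells, goblet progenitors and stem cells than in enterocytes and goblet cells. All 5 (Mki67, Top2a, Pcna, Mcm5 and Mcm6) were read in TA cells, goblet progenitors, stem cells, enterocytes and goblet cells of both mice. Summed, they stood at 883 and 654 CPM in TA cells, 676 and 563 CPM in goblet progenitors and 335 and 261 CPM in stem cells, against 17.5 and 43.2 CPM in enterocytes and 34.4 and 60.4 CPM in goblet cells. The other types did not all follow Dgcr8. EEC, with 8.06 and 4.64 CPM of Dgcr8, had 142 and 121 CPM of these markers, above enterocytes and goblet cells. Tuft cells had 281 and 164 CPM of them and secretory progenitors 167 and 116 CPM. The part of these markers in the Dgcr8 difference was not tested. Stem and TA cells did not differ in Dgcr8 (log2 fold change -0.02, SE 0.31, edgeR adjusted p = 0.986).

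For stem cells against the other 8 types, Dgcr8 differed by 0.76 on the log2 scale (SE 0.30, adjusted p = 0.0601, edgeR), and 0 of the 9 genes were called, beside 25.6% of all genes. DESeq2 called Dgcr8 alone there, and it was also the 1 gene with an unadjusted p under 0.05 in edgeR. In stem against TA cells, 0 of 9 were called by edgeR and by DESeq2 (4.83% of all genes in edgeR), and 0 had an unadjusted p under 0.05.

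Drosha, the enzyme that makes the nuclear cut, varied less. It stood at 20.5 and 20.995 CPM in goblet progenitors, 17.4 and 15.6 CPM in stem cells and 17.3 and 15.9 CPM in TA cells. Enterocytes had 9.91 and 8.60 CPM and goblet cells 9.78 and 12.96 CPM. Goblet progenitors against the other types gave 0.62 on the log2 scale (SE 0.21, adjusted p = 0.0565, edgeR), and TA against enterocytes gave 0.40 (SE 0.22, adjusted p = 0.125), so neither passed the threshold.

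The 1 contrast in which Drosha was called was Paneth cells against the other 8 types (1 of 9 genes, beside 27% of all genes). It rests on 2 Drosha UMIs in each library, or 0.569 CPM and 0.458 CPM. In replicate 1 that is 4.22% of the level in the other epithelial types together (exact 95% interval 0.51 to 15.3%), and in replicate 2 it is 3.36% (0.404 to 12.3%). On the TMM scale the log2 fold change was -1.63 (SE 0.59, adjusted p = 0.0374, edgeR), and with DESeq2 the adjusted p was 0.0946. Dgcr8, by contrast, had 0 UMIs in Paneth cells of replicate 1, which allows up to 0.853 CPM, and 8 UMIs (1.83 CPM) in replicate 2, so the mice did not agree on it. Its level there was 14.99% of that in the other types in replicate 2 (exact 95% interval 6.39 to 30.1%). These percentages are on the CPM scale, which is lowered for most genes in Paneth cells. With library sizes alone the median of all genes there was -3.20 on the log2 scale. On the TMM scale Dgcr8 was at -4.32 in replicate 1 and 0.95 in replicate 2 against the other types.

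**Figure D2:**
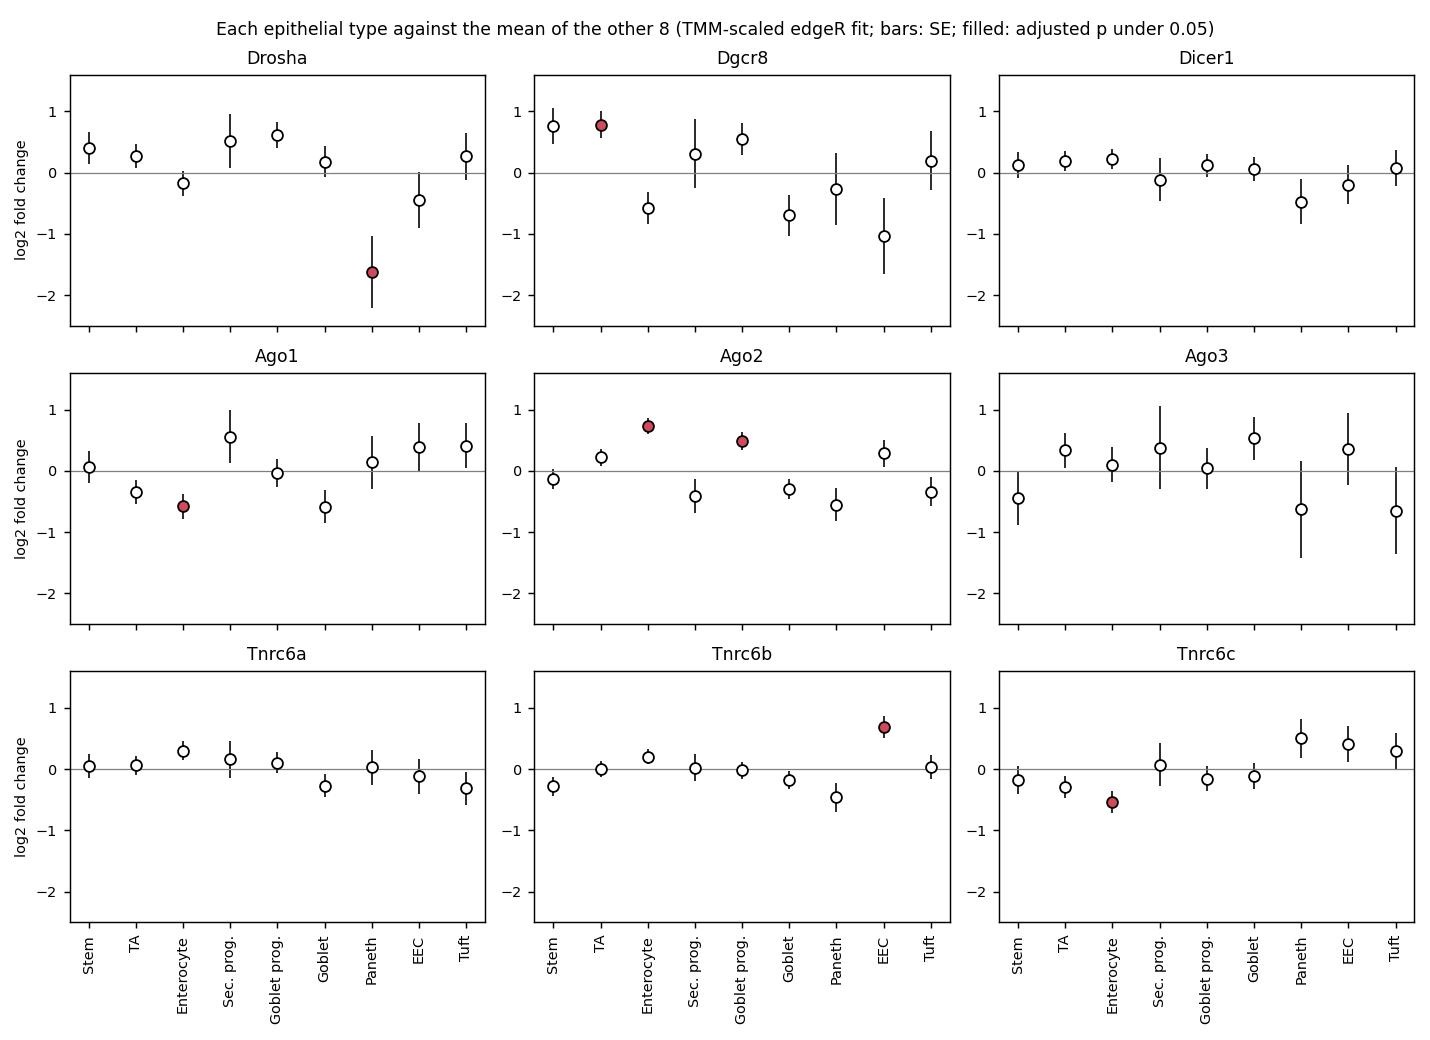
Log2 fold change (vertical axis) of each tested gene in each epithelial type (horizontal axis) against the mean of the other 8, from the TMM-scaled edgeR fit, with SE as bars and filled points for an adjusted p under the threshold. The 7 filled points are Dgcr8 in TA cells, Ago1, Ago2 and Tnrc6c in enterocytes, Ago2 in goblet progenitors, Tnrc6b in EEC and Drosha in Paneth cells.

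Dicer1, which makes the mature duplex, was the flattest of the 9 tested genes in the joint test (largest p). In TA cells it stood at 41.5 CPM in replicate 1 and 25.2 CPM in replicate 2, in stem cells at 32.0 and 26.2 CPM, in enterocytes at 28.1 and 22.4 CPM and in tuft cells at 33.9 and 30.4 CPM. No contrast called it, and its log2 fold changes against other types lay between -0.48 (Paneth) and 0.22 (enterocytes). The spread between mice was larger: EEC gave 40.3 CPM from 25 UMIs in replicate 1 and 9.28 CPM from 2 UMIs in replicate 2, and secretory progenitors gave 39.1 CPM from 18 UMIs and 8.93 CPM from 2.

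Ago2 was the 1 Argonaute called in the joint test. Its level was 63.9 CPM in enterocytes of replicate 1 and 55.3 CPM in replicate 2, and 71.1 and 65.4 CPM in goblet progenitors. EEC (enteroendocrine cells, which release gut hormones) had 62.8 and 78.9 CPM, and TA cells 64.2 and 52.1 CPM. Stem cells had 45.4 and 39.9 CPM, tuft cells 45.9 and 41.1 CPM, secretory progenitors 41.3 and 35.7 CPM and goblet cells 34.4 and 24.6 CPM. The first 4 types lay above the other 4 in both mice, but they were grouped by these same values, so this is a description only. Paneth cells, with 3.70 and 3.44 CPM, were lowest.

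Enterocytes against the other 8 types gave 0.73 for Ago2 on the log2 scale (SE 0.13, adjusted p = 2.06e-05, edgeR; 0.85 and 0.56 in the 2 mice). This call held in every alternative that could test it, also without the mouse as a term (adjusted p = 0.00392, edgeR). It was 0.79 with library sizes alone and 0.62 with Paneth cells left out. With both, a setting chosen after seeing the data, it was 0.32 (adjusted p = 0.0353, edgeR), where the median of all genes was -0.32, against 0.03 in the TMM-scaled fit of all 9 types. Goblet progenitors also exceeded the other types in Ago2, by 0.49 (SE 0.15, adjusted p = 0.0219, edgeR; 0.44 and 0.54), the 1 gene of 9 called beside 12.1% of all genes. They exceeded goblet cells by 0.70 (SE 0.20, adjusted p = 0.00708, edgeR; 0.50 and 0.97). Without the mouse as a term these 2 adjusted p values were 0.207 and 0.0869 in edgeR, and in thinned cells they were 0.218 and 0.279.

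TA cells against enterocytes gave -0.45 for Ago2 on the TMM scale (SE 0.17, adjusted p = 0.0247, edgeR), yet their CPM were alike, and with library sizes alone the value was -0.04 (adjusted p = 0.880, edgeR). With library sizes alone the median of all genes in this comparison was 0.35, against -0.06 with TMM scaling, so Ago2 lay below the typical gene in both settings. The share of cells with an Ago2 UMI after thinning was 27.5% and 21.7% in TA cells and 26.0% and 24.3% in enterocytes (68.4% and 57.9%, and 65.0% and 52.4%, before thinning).

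**Figure D3:**
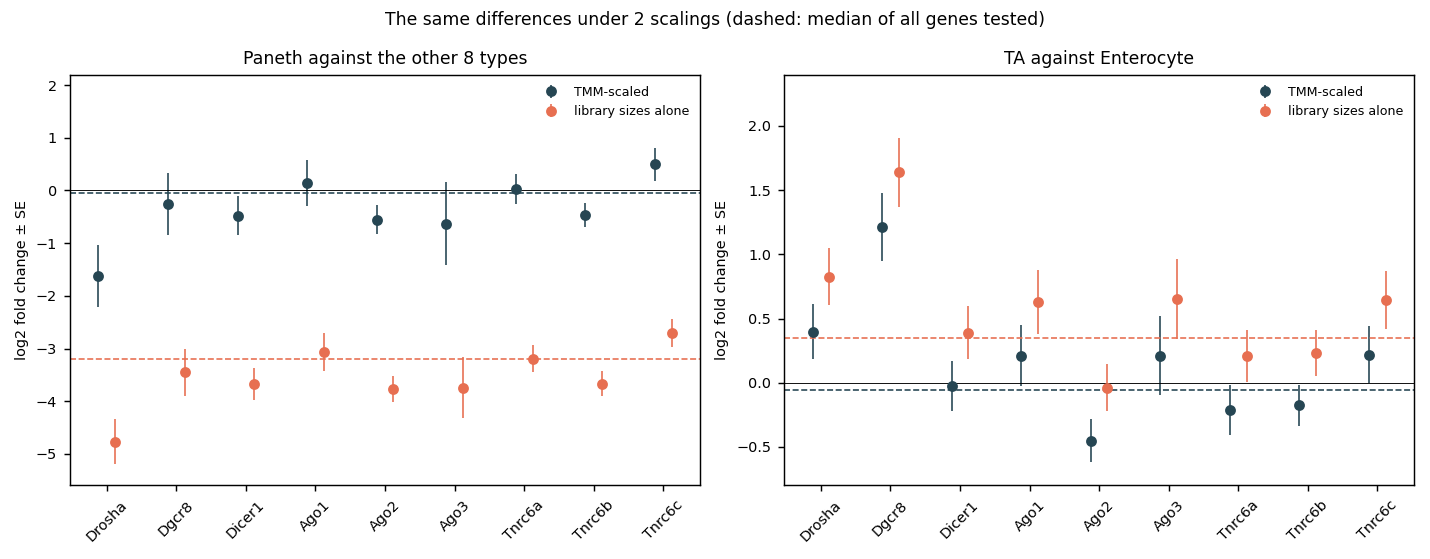
Log2 fold changes with SE (vertical axis) of the 9 tested genes in Paneth cells against the other 8 types (left) and in TA cells against enterocytes (right), with TMM scaling and with library sizes alone, and the median of all genes tested as dashed lines. In Paneth cells the median of all genes moves from -0.04 to -3.20 with the scaling and the 9 genes move with it.

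Ago1 had a different order. It was lower in enterocytes, at 6.35 and 8.79 CPM, and in goblet cells, at 6.87 and 6.71 CPM, than in tuft cells (16.9 and 21.4 CPM), secretory progenitors (19.5 and 17.9 CPM) and EEC (20.9 and 13.9 CPM). In enterocytes against the other types the log2 fold change was -0.58 (SE 0.20, adjusted p = 0.0165, edgeR; -0.65 and -0.37). Goblet cells had -0.58 as well, with a larger error (SE 0.27, adjusted p = 0.101, edgeR). In enterocytes, 3 of the 9 genes were called, Ago2 upward and Ago1 and Tnrc6c downward, beside 54.5% of all genes. Dgcr8 had -0.58 there (SE 0.26, adjusted p = 0.0564, edgeR), which did not pass. It was called there by DESeq2 (-0.65, adjusted p = 0.0295), and by edgeR with DESeq2 size factors, with no filter on low counts, under the stricter cell filter and with Paneth cells left out (adjusted p from 0.00803 to 0.0473). Without the mouse as a term Ago1 in enterocytes had an adjusted p of 0.1003 in edgeR, and with cells thinned to 5000 UMIs it had 0.0736.

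Ago3 ranged from 4.11 to 13.03 CPM outside Paneth, EEC, tuft and IEL sums and was called in no contrast. Its mice differed: EEC held 10 UMIs (16.1 CPM) in replicate 1 and 0 in replicate 2, which allows up to 13.9 CPM. Ago4 was the scarcest Argonaute in UMIs, with 41 and 14 UMIs in enterocytes (2.12 and 2.62 CPM), 9 and 6 in TA cells (1.07 and 1.05 CPM) and at most 11 in any other epithelial sum. With no filter on low counts it could be tested, and no contrast called it. The smallest adjusted p was 0.0661, for TA against enterocytes (log2 fold change -1.37, SE 0.60, edgeR).

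The make-up of the Argonaute family was read as each gene's share of the Ago1 to Ago4 UMIs, to compare types with each other. Such a share depends on how well the 3′ end of each transcript is captured, so it does not rank the proteins. Ago2 held 79.9% of 1550 UMIs in enterocytes of replicate 1 (exact 95% interval 77.8 to 81.8%) and 78.1% of 379 in replicate 2 (73.6 to 82.2%). In stem cells it held 66.4% of 122 (57.3 to 74.7%) and 66.7% of 96 (56.3 to 75.96%). The intervals of stem cells and enterocytes did not overlap in replicate 1 and did overlap in replicate 2. Ago1 showed the reverse, with 20.5% and 20.8% in stem cells and 7.94% and 12.4% in enterocytes. In goblet cells Ago3 held 17.4% and 15.5%, against 9.55% and 5.80% in enterocytes.

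**Figure D4:**
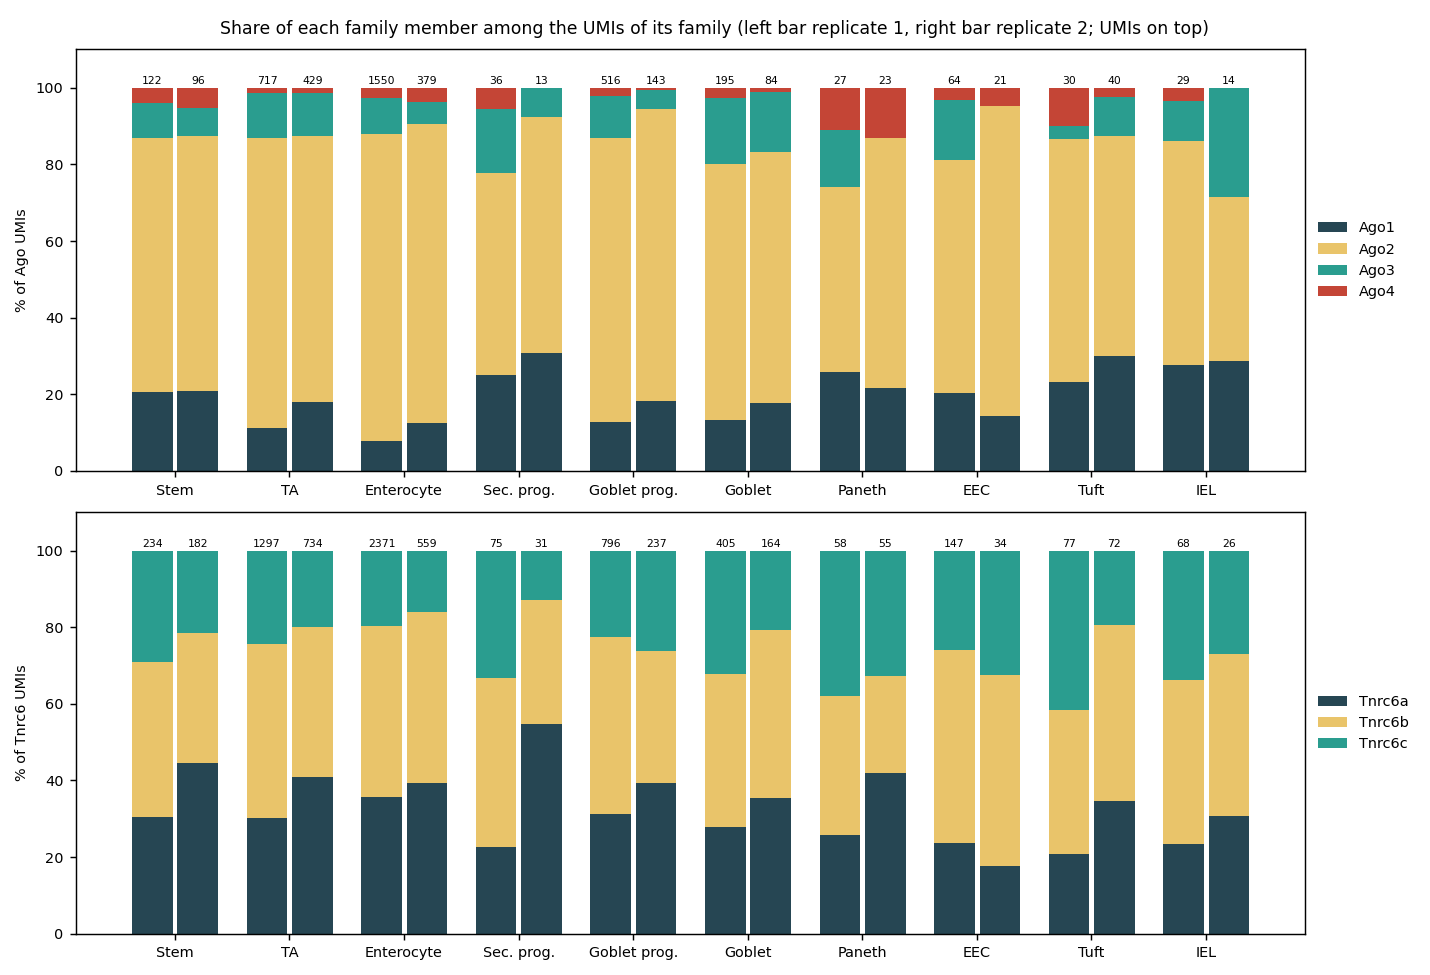
Share in percent (vertical axis, from 0) of each gene among the UMIs of its family, for the Argonautes (top) and the Tnrc6 genes (bottom), in each annotated type with replicate 1 on the left and replicate 2 on the right, and the number of family UMIs above each bar. Ago2 takes 79.9% and 78.1% in enterocytes against 66.4% and 66.7% in stem cells, and bars with fewer than 50 UMIs (secretory progenitor replicate 2, for example, with 13 Argonaute UMIs) are imprecise.

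Of the Tnrc6 scaffolds, Tnrc6b was higher in EEC. It stood at 119 CPM in EEC of replicate 1 (74 UMIs in 54 cells) and 78.9 CPM in replicate 2 (17 UMIs in 20 cells). Tuft cells had 70.1 and 58.9 CPM, TA cells 69.7 and 50.2 CPM, enterocytes 54.7 and 46.7 CPM and goblet cells 42.8 and 32.2 CPM. EEC lay above each other epithelial type in both mice.

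The log2 fold change of EEC against the other types was 0.69 for Tnrc6b (SE 0.19, adjusted p = 0.00641, edgeR; 0.72 and 0.60), the 1 gene of 9 called beside 21.6% of all genes. Without the mouse as a term the adjusted p was 0.0586 in edgeR. The EEC sum of replicate 2 also held all 5 IEL markers at 413 CPM summed, and that of replicate 1 held 1 of 5 at 3.22 CPM. Their part in the Tnrc6b value was not tested.

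Tnrc6c was lower in enterocytes. Its level there was 24.0 and 16.6 CPM, against 37.7 and 25.5 CPM in TA cells, 38.1 and 24.3 CPM in stem cells, 61.2 and 51.1 CPM in EEC and 77.4 and 25.004 CPM in tuft cells. Goblet cells gave 34.4 CPM in replicate 1 and 15.2 CPM in replicate 2, so that in replicate 2 they lay below enterocytes. Enterocytes against the other types gave -0.54 on the log2 scale (SE 0.18, adjusted p = 0.0143, edgeR; -0.52 and -0.49). It was not called without the mouse as a term (adjusted p = 0.235, edgeR) or in thinned cells (0.261).

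Tnrc6a was called in no contrast. It stood at 46.3 and 52.6 CPM in TA cells, 43.7 and 41.1 CPM in enterocytes and 39.8 and 50.5 CPM in stem cells, and lay lower in goblet cells, at 29.9 and 25.9 CPM. Its log2 fold changes were between -0.31 and 0.34 over all contrasts among epithelial types. Among Tnrc6 UMIs, Tnrc6a held 32.1% in epithelial cells of replicate 1 (exact 95% interval 30.9 to 33.4%) and 39.8% in replicate 2 (37.7 to 42.0%), a difference between the mice beyond counting error.

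In 4 types no gene stood apart after adjustment. Secretory progenitors (4.78% of all genes called), goblet cells (29.2%), tuft cells (16%) and stem cells each had 0 of 9 called by edgeR. DESeq2 called 0 in the first 3. At an unadjusted p under 0.05 edgeR had 0 genes in secretory progenitors, 2 in goblet cells (Dgcr8 and Ago1) and 0 in tuft cells. These sums are small for secretory progenitors (31 and 19 cells) and tuft cells (40 and 38 cells), and a difference there may not have been detectable at this depth. Over the 9 one-type contrasts, 7 of 81 gene and type pairs were called, beside 24.8% of the pairs of all genes. Over the 3 contrasts between neighbouring types it was 4 of 27, beside 28.6% of the pairs of all genes.

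Paneth cells, which fill their secretory granules with antimicrobial peptides, were low in CPM in every gene but Ago4. Ago4 had 0.853 and 0.687 CPM there, against 1.32 and 0.447 CPM in goblet cells. The 10 genes together made 27.0 and 22.2 CPM there, against 143 to 401 CPM in the other epithelial sums. Ago2 had 3.70 and 3.44 CPM, Tnrc6b 5.97 and 3.21 CPM, Tnrc6a 4.27 and 5.27 CPM, Tnrc6c 6.26 and 4.12 CPM and Dicer1 2.28 and 2.06 CPM. Paneth cells carried a median of 44684 and 80820 UMIs per cell, the highest of the types. The 10 genes together gave 1.22 and 1.80 UMIs per Paneth cell, against 2.77 and 2.32 per goblet cell and 10.6 and 5.76 per goblet progenitor. On the TMM scale the Paneth differences were within the threshold for all but Drosha. A share taken up by secretory messenger RNAs and a lower number of machinery transcripts cannot be told apart on the CPM scale.

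IEL, lymphocytes that sit among the epithelial cells, were compared with the mean of the 9 epithelial types in a fit of 11402 genes. edgeR called 0 of the 9 genes, beside 30% of all genes, DESeq2 called 0, and 0 had an unadjusted p under 0.05. Tnrc6c had 87.6 and 31.1 CPM (23 and 7 UMIs), which gave 0.65 on the log2 scale (SE 0.36, adjusted p = 0.180, edgeR). Ago1 had 30.5 and 17.7 CPM (8 and 4 UMIs) and 0.80 (SE 0.47, adjusted p = 0.210, edgeR). Against enterocytes alone, these same 2 genes were called, Ago1 at 1.31 (adjusted p = 0.0337, edgeR) and Tnrc6c at 1.13 (0.0195), beside 43.7% of all genes. Against TA cells alone (29.9% of all genes called) and against goblet cells alone (33.8%) edgeR called 0 of the 9. Replicate 1 held the higher level of both, and its IEL sum is the one with the myeloid markers given above. Their part in these values was not tested.

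Between the mice, Dicer1 and Tnrc6b were higher in replicate 1 in all 9 epithelial types. Over all epithelial cells Dicer1 stood at 30.2 and 18.9 CPM, a ratio of replicate 1 to replicate 2 of 1.5998, and Tnrc6b at 55.5 and 37.7 CPM, a ratio of 1.47. Ago3 had a ratio of 1.75, Tnrc6c 1.54 and Ago2 1.395, each higher in replicate 1 in 8 of 9 types. Drosha (1.13), Tnrc6a (1.07), Dgcr8 (1.05) and Ago1 (0.856) were closer to even.

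These ratios are no test, since each mouse gave 1 library. The libraries also differed in quality. Kept cells were 2082 of 7665 barcodes in replicate 1 and 1193 of 1251 in replicate 2. The median mitochondrial percent was 13.2 and 7.59 in enterocytes and 9.02 and 5.52 in TA cells. The part of these differences in the ratios was not tested. Over 9189 genes at 5 CPM or more in either mouse the median log2 ratio was 0.27, with 5% of genes below -0.72 and 5% above 1.24. On this scale Dicer1 was at 0.68, Ago3 at 0.81, Tnrc6c at 0.62, Tnrc6b at 0.56 and Ago2 at 0.48, so all 10 genes lay inside the range of the middle 90% of genes. With the 9 types weighted alike, the ratio of Ago2 fell to 1.09 and that of Tnrc6a to 0.902, while Dicer1 had 1.70 and Tnrc6b 1.38.

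**Figure D5:**
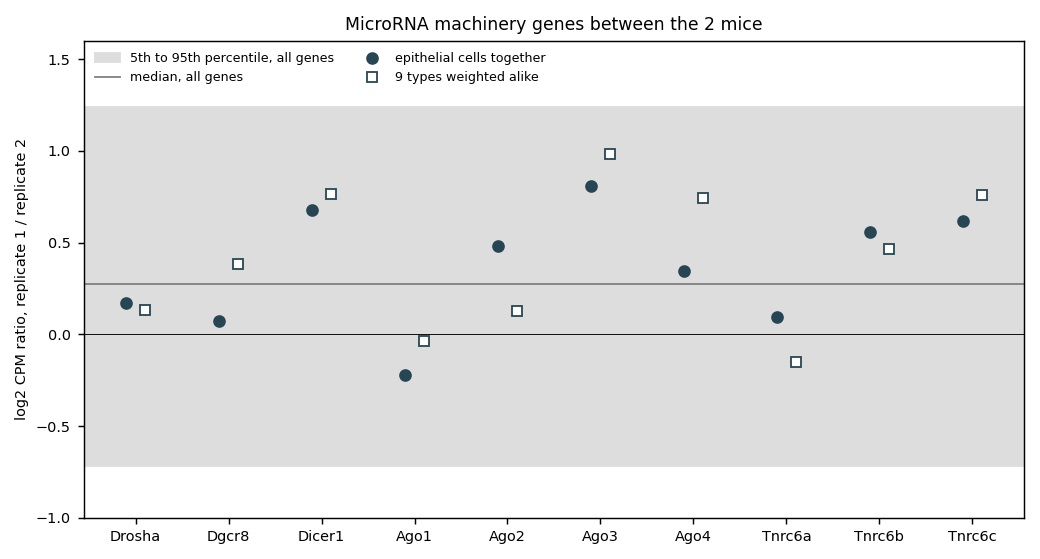
Log2 ratio of CPM in replicate 1 over replicate 2 (vertical axis) for the 10 genes, over all epithelial cells (filled circles) and with the 9 types weighted alike (open squares), with the median (line) and the 5th to 95th percentile (grey band) of 9189 genes. All 10 filled circles lie inside the band, from -0.22 for Ago1 to 0.81 for Ago3.

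Lists of partner genes of the same pathway put these values in context. In the joint test, 10 of 13 nuclear processing and export partners were called (76.9%), 8 of 11 Dicer and loading partners (72.7%), 8 of 18 silencing partners that act downstream of Tnrc6 (44.4%) and 5 of 8 tested tailing and turnover genes (62.5%, of 11 listed), beside 77.3% of all genes. Lin28a and Lin28b had 0 UMIs in both mice and Trim71 had 1.

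Between TA cells and enterocytes, most of the nuclear partners differed in the same direction as Dgcr8. In that comparison 11 of 13 were higher in TA cells and 0 lower, beside 22.6% of all genes higher and 29.1% lower, with a median log2 fold change of 0.85 against -0.06 over all genes. Ran, the GTPase that drives nuclear export, differed by 1.56 (SE 0.17, adjusted p = 6.7e-09, edgeR), Srsf3, a splicing factor that also binds primary microRNAs, by 1.06 (SE 0.15, adjusted p = 8.86e-07), Hnrnpa1 by 1.04 (SE 0.17, adjusted p = 8.82e-06) and Hnrnpa2b1 by 0.67 (SE 0.14, adjusted p = 2.49e-04). In enterocytes against the other types 7 of the 13 were lower and 0 higher, beside 23.2% of all genes lower and 31.3% higher. Between stem and TA cells none of the 13 was called. Goblet progenitors against goblet cells, where Dgcr8 was also called, had 4 of 13 higher and 0 lower (13.2% and 16% of all genes). In EEC against the other types Dgcr8 was at -1.04 (adjusted p = 0.260, edgeR). There 1 of the 13 was higher and 1 lower, with a median of -0.02. The part of the proliferation markers in the difference between TA cells and enterocytes was not tested.

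Of the Dicer and loading partners, 4 of 11 were higher and 2 lower in TA cells than in enterocytes (median 0.11), against the same shares of all genes. In Paneth cells against the other types 7 of the 11 were lower and 0 higher (median -0.95). Of the 13 nuclear partners 5 were lower there and 0 higher. Of all genes 11.4% were lower and 15.5% higher in that contrast. Hsp90aa1, an Hsp90 chaperone used in Argonaute loading, was higher in TA cells by 1.14 (SE 0.16, adjusted p = 3.68e-07, edgeR) and Ptges3, its cochaperone p23, by 0.82 (SE 0.15, adjusted p = 3.07e-05). Prkra, the Dicer-binding protein PACT, went the other way: it was higher in enterocytes than in the other types by 0.91 (SE 0.14, adjusted p = 2.74e-06, edgeR). Hspa8, a heat shock cognate chaperone, exceeded the other types in stem cells by 0.57 (SE 0.13, adjusted p = 0.00124).

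Silencing partners were called in both directions. Of the 18, 4 were higher and 3 lower in enterocytes than in the other types (31.3% and 23.2% of all genes), 4 were higher and 2 lower in tuft cells (10% and 5.98%), and 3 were higher and 1 lower in TA cells than in enterocytes. Dcp1b, a decapping cofactor, was higher in tuft cells than in the other types by 2.82 (SE 0.31, adjusted p = 1.67e-08, edgeR). Mov10, an RNA helicase bound to Argonautes, was higher in enterocytes than in TA cells, TA over enterocytes being -3.66 on the log2 scale (SE 0.38, adjusted p = 1.61e-08; -4.01 and -2.09 in the 2 mice). Pabpc1, the poly(A)-binding protein, exceeded the other types in stem cells by 0.71 (SE 0.11, adjusted p = 1.44e-05). Ddx6, a helicase of translational repression, was higher in EEC by 0.93 (SE 0.17, adjusted p = 1.26e-04), the type in which Tnrc6b was higher.

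Among tailing and turnover genes, Zcchc11, a uridylyl transferase of small RNAs, was higher in EEC than in the other types by 1.47 (SE 0.28, adjusted p = 1.79e-04, edgeR), and lower in enterocytes, with -1.15 (SE 0.20, adjusted p = 1.62e-05). Its relative Zcchc6 was higher in EEC as well, by 0.70 (SE 0.23, adjusted p = 0.0253, edgeR). Xrn2, a nuclear exonuclease, was higher in stem cells by 0.65 (SE 0.15, adjusted p = 0.00144), and Snd1, a nuclease of the Tudor family, was higher in Paneth cells by 0.80 (SE 0.20, adjusted p = 0.00283). Of the 3 PIWI genes, which encode the Argonaute relatives of the germ line, Piwil1 had 1 and 2 UMIs and Piwil2 21 and 9. Piwil4, with 59 and 28 UMIs, was tested and was higher in goblet cells than in the other types by 2.90 (SE 0.45, adjusted p = 5.46e-06, edgeR). Its TMM-scaled level was highest in goblet cells only in replicate 2, and in Paneth cells in replicate 1. Paneth cells (2.09) and secretory progenitors (1.94) also lay above the other types but were not called. Enterocytes (-3.99) and TA cells (-2.78) were called lower. Ago4 had more UMIs (113) and did not pass the filter on low counts. The part of that filter in the Piwil4 call was not tested.

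The genes with the most similar pattern were found by Pearson correlation of mean log2 TMM-scaled CPM over the 9 epithelial types, for the 8 members with at least 500 UMIs. Each correlation is a description over 9 points from the same 2 libraries, picked as the highest among all tested genes, and carries no test. Dgcr8 was closest to Sae1 (r = 0.991), Donson (0.979) and Nrm (0.973), and Drosha to Traf7 (0.970), Dcp2 (0.960) and Phf6 (0.953). Dicer1 was closest to Senp5 (0.961), Tatdn3 (0.950) and Zc3h11a (0.948). Of the Argonautes, Ago1 was closest to Pabpn1 (0.960), Rnf8 (0.939) and Mycl (0.922), and Ago2 to Cdc42bpb (0.956), 2310007B03Rik (0.940) and Gcnt4 (0.939). Of the scaffolds, Tnrc6a was closest to Tmem143 (0.967), Itgam (0.945) and Cish (0.922), Tnrc6b to Tmie (0.935), Upp1 (0.934) and Pgap1 (0.925), and Tnrc6c to Ing1 (0.981), Dagla (0.959) and Tmem67 (0.958). Among the tested members themselves, Drosha and Dgcr8 gave the highest value (r = 0.880), and Ago3 and Tnrc6c the lowest (r = -0.907). Ago3 had 458 UMIs, under the limit of 500, and 0 in EEC and Paneth cells of replicate 2. Neither Ago3 nor Tnrc6c was called in the joint test.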

How the data were processed

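Libraries were made with 10x 3′ chemistry. The authors aligned reads to mm10 with Cell Ranger 3.0.1 and deposited UMI counts per gene and barcode. Per their methods, SoupX corrected for ambient RNA and scDblFinder flagged doublets for removal. Whether SoupX was applied to the deposited matrices used here is not given in the sources, so the counts may hold ambient RNA. They kept cells with at least 1500 genes and at most 25% mitochondrial reads and deposited the mitochondrial percent and the cell type of each cell. Their Seurat version is 3.2.1 in the processing notes. Annotation rows were joined to the cells of the deposited merged count table by order, where total UMIs and detected genes matched in 3275 of 3275 cells, and then to each library's matrix by barcode. The 2937 cell columns of another series were not used.

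Here, counts were summed per mouse and type (18 epithelial sums, 20 with IEL), filtered with filterByExpr, TMM-scaled and fitted with edgeR 4.0.16 (robust quasi-likelihood, terms for type and mouse; R 4.3.3). Tests were two-sided, and Benjamini-Hochberg adjustment ran over all genes tested, and calls needed an adjusted p under 0.05. Residual degrees of freedom were 8, from only 2 mice, and assume 1 spread per gene for all types. SE is the size of the log2 fold change over the square root of F. Fold changes per mouse used a prior count of 2. The mouse is a block because all types of a mouse come from 1 animal and library, and deviations of a type correlated with those of the other types of its mouse at 0.21 to 0.47. Poisson and binomial (Clopper-Pearson) intervals are exact 95% intervals. They, and the limit of 3 counts set for a count of 0, cover counting error only. Steps were tested on simulated data. DESeq2 1.42.0, other scalings, filters and cell sets served as alternatives. Positions are from GENCODE M21 and microRNAs from RefSeq.

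All 10 members are named. Of each partner list, up to 4 genes with the smallest joint p among those called are named, and for members with 500 UMIs the 3 closest genes. Members and lists were chosen with earlier results of these data known. A search for miR-375 sites was not made.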

Additional observations from a re-analysis of the deposited data

How the results depend on the processing

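The joint test called 4 of 9 members, beside 77.3% of all genes. It called 9 with library sizes alone (99.5% of all genes), 7 with library sizes alone and Paneth cells left out (85.7%, chosen after seeing the data), 1 with no replicate block (51.7%), 2 under the stricter cell filter (68.6%) and 2 with Paneth cells left out (77.3%). Of the pairs of member and type, 7 were called (24.8% of pairs of all genes), against 34 (44.8%), 16 (29.9%) and 2 (13.3%) under the first 3 of these settings and 3 (20.3%) in thinned cells. Of the pairs between neighbouring types, 4 were called (28.6%), against 10 (32.9%), 10 (35.8%) and 0 (12.0%), and 0 (24.4%) in thinned cells, where 7 members could be tested (not Dgcr8 or Ago3). For IEL, 0 were called, against 3 with library sizes alone (34.1% of all genes) and 2 against enterocytes alone (43.7%). Counts under the other alternatives stayed within 1.5 times. With library sizes alone the median log2 fold change of all genes moved to 0.56 in TA cells, 0.71 in EEC and -3.20 in Paneth cells, and differences are to be read relative to it. Of the 11 called differences none changed direction in any alternative or without either replicate (7 of 7 and 4 of 4 kept it), while 21 values under an alternative no longer passed the threshold, 9 of them with no replicate block. Drosha in Paneth cells ranged from -6.58 (thinned, adjusted p = 0.358, edgeR) to -0.46 (stricter filter, where replicate 1 has no Paneth sum; 0.926). The stricter filter kept cells with at least 2500 genes and at most 10% mitochondrial reads and dropped the Paneth and IEL sums of replicate 1. The joint test has no value without a replicate, since 1 sum per type is then left. Depth limits members in small sums: secretory progenitors and EEC of replicate 2 held 0 to 17 UMIs of each. The causes of these changes were not tested.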
